A study of Mus musculus with 12 samples.

Results

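The genes that make, sense, move and export cholesterol were followed through 12 tumors of 4T1 cells, a mouse mammary carcinoma line, grown orthotopically in Balb/c mice. They comprised 30 genes, picked by symbol from the 55401 in the table, and all 30 reached a level of at least 1 TPM, the length-corrected share of a library's transcripts, in at least 3 tumors. The 18 synthesis enzymes, 5 genes of the SREBP factors and the proteins that hold or carry them and 2 transport and storage genes formed a synthesis group of 25, kept apart from 5 genes of the liver X receptor (LXR) and its efflux targets. Every tumor received a protein, begun when tumors measured 100 mm3, and each of the 4 groups held 3 tumors. The control group received control IgG, the IL-10-Fc group interleukin-10 fused to an antibody Fc part, and the aCSF1R group an antibody that blocks CSF1R, the growth factor receptor on which macrophages depend. The BF10 group received a single protein made of such an antibody with interleukin-10 at its end. The number of doses is uncertain, being 6 in the sample labels and 4 in the series description, and the age of the mice at sampling was not given in the sources used here. Whole tumors were sequenced, so a level is a mean over cancer cells, stroma and leukocytes, and fewer cells of a type cannot be told apart from less RNA per cell.

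Cells make cholesterol from acetyl-CoA through mevalonate, squalene and lanosterol. When membrane sterol falls, SCAP carries the SREBP factors from the endoplasmic reticulum to the Golgi, where they are cut and freed to switch on nearly every enzyme of the route, while the INSIG proteins hold SCAP back when sterol is plentiful. Surplus sterol is esterified by SOAT1 or, as oxysterol, engages the LXR receptors, which induce the exporters ABCA1 and ABCG1 and the ubiquitin ligase MYLIP that removes lipoprotein receptors. Macrophages rely on the LXR arm to shed the sterol they take up with debris.

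To show the motifs found before these genes, the bases before the RefSeq start site of 6 members are printed, 5′ to 3′ on the strand of the gene (build GRCm38.p6), leaving out any base inside an annotated exon of GENCODE M21. Hmgcs1 stands for the early enzymes, Srebf2 and Insig1 for the regulators, Nsdhl and Ebp for the late enzymes and Abca1 for efflux. Nsdhl and Ebp were picked because their levels did not overlap between some groups. That pattern is given below with its share of all genes, and neither gene passed a test. Capitals mark the CCAAT box, the E-box with its letters CACGTG, and 2 forms of the sterol regulatory element, TCACNCCAC and ATCACNCCA, which share most of their letters and can overlap; every motif was searched on both strands. The stretches are Hmgcs1 at chr13:119690101-119690350 (plus strand), Srebf2 at chr15:82147019-82147180 (plus), Insig1 at chr5:28071162-28071362 (plus), Nsdhl at chrX:72918412-72918520 (plus), Ebp at chrX:8193513-8193762 (minus) and Abca1 at chr4:53159896-53160145 (minus).
Hmgcs1: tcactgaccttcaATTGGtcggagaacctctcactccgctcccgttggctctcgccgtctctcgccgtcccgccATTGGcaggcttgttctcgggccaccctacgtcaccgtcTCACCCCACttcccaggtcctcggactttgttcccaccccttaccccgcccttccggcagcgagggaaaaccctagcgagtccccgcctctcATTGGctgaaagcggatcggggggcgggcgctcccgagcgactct
Srebf2: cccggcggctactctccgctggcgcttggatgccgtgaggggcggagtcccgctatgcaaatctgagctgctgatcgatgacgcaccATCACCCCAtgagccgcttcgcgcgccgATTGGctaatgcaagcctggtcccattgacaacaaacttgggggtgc
Insig1: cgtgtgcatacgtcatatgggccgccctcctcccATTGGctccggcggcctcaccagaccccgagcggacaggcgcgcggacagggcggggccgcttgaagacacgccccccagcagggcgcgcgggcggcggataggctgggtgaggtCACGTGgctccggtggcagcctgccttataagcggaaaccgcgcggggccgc
Nsdhl: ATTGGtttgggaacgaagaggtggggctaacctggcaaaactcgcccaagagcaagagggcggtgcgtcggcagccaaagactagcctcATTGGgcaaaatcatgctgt
Ebp: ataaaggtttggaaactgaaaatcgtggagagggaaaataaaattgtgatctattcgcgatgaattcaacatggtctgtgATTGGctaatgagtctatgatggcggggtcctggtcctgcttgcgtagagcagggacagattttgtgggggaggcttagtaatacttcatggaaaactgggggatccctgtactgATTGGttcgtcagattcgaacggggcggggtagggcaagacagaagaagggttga
Abca1: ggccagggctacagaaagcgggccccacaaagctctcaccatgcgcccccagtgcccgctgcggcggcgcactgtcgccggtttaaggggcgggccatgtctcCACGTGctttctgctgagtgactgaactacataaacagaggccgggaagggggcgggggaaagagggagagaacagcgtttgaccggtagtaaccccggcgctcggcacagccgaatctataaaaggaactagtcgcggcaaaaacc

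The set of RefSeq windows used here covered 25 of the 30 members and lacked Fdps, Fdft1, Sqle, Stard4 and Abcg1. Their absence from this set does not mean that RefSeq has no start site for them. In the 250 bases before the start, CCAAT on either strand stood in 13 of 15 enzyme windows (the exceptions were Acat2 and Dhcr7) and in 1 of 4 LXR and efflux windows, against 34.5% of 27025 windows, 1 for each gene symbol. GGGCGG, the GC box, stood in 14 of 15 enzyme windows and in 2 of 4 LXR and efflux windows, against 32.9% of all. The first form of the sterol regulatory element was found in Hmgcs1 alone among the members (1.04% of all windows) and the second form in Srebf2 alone (0.696% of all). CACGTG was in Hsd17b7, Sc5d, Insig1 and Abca1, against 6.05% of all windows. AGGTCANNNNAGGTCA, the direct repeat that LXR reads with its partner RXR, was in 0 of 25 member windows and 0.0111% of all. Only this exact form was searched, and just 3 of the 27025 windows held it. The 0 among members therefore cannot tell whether a less exact repeat is present, in Abca1 or elsewhere. These are matches of letters in short windows and do not show binding.

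The libraries fell into sets that did not follow the treatments. The deposited values of 5 libraries (control IgG 4 and 7, IL-10-Fc 7, aCSF1R 8 and BF10 6), called higher-sum here, added up to 782919 to 921581, and those of the other 7 (lower-sum) to 609695 to 648413. The control group held 2 higher-sum tumors and each other group 1. Relative depth, read only from values close to the smallest of each gene, was 0.981 to 1.03 of the median library. That choice of values holds the estimate near 1, so it cannot tell whether the libraries were equally deep. In each library 23012 to 25299 genes were above 0. Markers of macrophages were present in all groups and were lowest in aCSF1R (summed TPM of 12 markers 90.2 to 278, against 1572 to 2329 in the other 9 tumors), and 7 of the 12 were lower in aCSF1R than in control by limma. The sets also differed without overlap in epithelial markers (752 to 1682 summed TPM over 6 genes in higher-sum and 1860 to 2567 in lower-sum tumors), endothelial markers (48.2 to 103.8 and 104.6 to 223.5), mitochondrial transcripts (5.90% to 9.26% and 3.14% to 3.97% of TPM) and ribosomal protein transcripts (21.1% to 25.4% and 13.1% to 15.7%).

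The sterol genes ranged widely in level, and the order of neighbouring genes was rarely kept in every tumor. Fdps (farnesyl diphosphate synthase, ENSMUSG00000059743, GRCm38 chr3:89093588-89101959) had the highest median at 121 TPM, followed by Msmo1 (methylsterol monooxygenase, 99.4 TPM) and Nr1h2 (LXR beta, 96.7 TPM). Fdps exceeded Msmo1 in 7 of 12 tumors and Msmo1 exceeded Nr1h2 in 5 of 12, so these 3 genes could not be ranked. At the other end stood Mylip with a median of 6.15 TPM, Abcg1 with 4.00 TPM and Nr1h3 (LXR alpha) with 2.79 TPM. Of the 29 neighbouring pairs only Fdft1 over Cyp51 and Dhcr7 over Mvd held their order in 12 of 12 tumors. Among the LXR receptors, the beta form was thus the abundant one in these tumors and the alpha form sat at the 22.1 percentile of the genes tested, beside 89.8 for Nr1h2.

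The enzymes of the mevalonate part varied widely between tumors of 1 group. Fdps measured 50.2, 113 and 32.2 TPM in control IgG tumors 4, 5 and 7, and 166, 128 and 101 TPM in IL-10-Fc tumors 2, 4 and 7. It measured 145, 146 and 48.0 TPM in aCSF1R tumors 4, 6 and 8, and 134, 91.5 and 205 TPM in BF10 tumors 3, 6 and 7. The lowest values came from higher-sum tumors in every group and the groups overlapped. Hmgcs1, which makes the HMG-CoA that commits carbon to the route, measured 32.3, 80.7 and 13.0 TPM in control, 86.5, 72.5 and 54.5 TPM in IL-10-Fc, 82.6, 91.0 and 27.6 TPM under aCSF1R, and 60.3, 43.2 and 89.4 TPM in BF10 tumors, in the same tumor order. Control tumor 7 was the lowest of the 12, control tumor 5 lay among the lower-sum tumors of the other groups, and the groups overlapped.

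The remaining mevalonate enzymes were spread in the same way. Acat2, the thiolase of the first step, averaged 19.4 ± 16.9 TPM in control, 39.1 ± 11.1 in IL-10-Fc, 35.5 ± 20.4 under aCSF1R and 40.8 ± 20.3 in BF10 (mean ± SD, n = 3, as in all such values here). Its level is uncertain because it has a close copy, Acat3, with which reads may be shared. Idi1, the isopentenyl isomerase, averaged 24.2 ± 20.5, 45.8 ± 19.7, 45.3 ± 24.8 and 49.3 ± 33.5 TPM in the same group order. The kinases were lower, with Mvk at 13.9 ± 8.39, 22.1 ± 3.34, 17.8 ± 8.60 and 23.9 ± 6.54 TPM and Pmvk at 24.5 ± 15.2, 33.2 ± 9.56, 28.3 ± 14.2 and 39.0 ± 18.3 TPM. Mvd, the decarboxylase after them, averaged 8.27 ± 5.58, 13.1 ± 3.39, 10.4 ± 6.08 and 15.2 ± 5.99 TPM. In each of these enzymes the control mean was the lowest of the 4, with an SD that reached into the other groups.

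Among the squalene enzymes, Lss (lanosterol synthase, which closes the sterol rings) varied most, 14.2-fold between the lowest and highest tumor. It measured 1.82, 14.4 and 1.99 TPM in control tumors 4, 5 and 7, 19.98, 9.38 and 5.10 TPM in IL-10-Fc tumors 2, 4 and 7, 14.8, 23.0 and 1.63 TPM in aCSF1R tumors 4, 6 and 8, and 13.3, 2.94 and 19.2 TPM in BF10 tumors 3, 6 and 7. The 5 higher-sum tumors held the 5 lowest values, 1.63 to 5.10 TPM, below the 9.38 to 23.0 TPM of the other 7. Fdft1 (squalene synthase) averaged 35.3 ± 15.6 TPM in control, 54.1 ± 5.29 in IL-10-Fc, 51.8 ± 12.6 under aCSF1R and 55.4 ± 18.5 in BF10, and Sqle (squalene epoxidase) 40.6 ± 24.7, 58.9 ± 8.30, 57.8 ± 20.7 and 61.9 ± 25.5 TPM. For these 2 enzymes the library sets overlapped.

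Late sterol enzymes included the members that departed from the common course. Msmo1, which strips methyl groups from lanosterol products, measured 150, 87.4 and 68.7 TPM in control tumors 4, 5 and 7, 95.3, 83.1 and 150 TPM in IL-10-Fc tumors 2, 4 and 7, 89.0, 103 and 197 TPM in aCSF1R tumors 4, 6 and 8, and 66.7, 173 and 117 TPM in BF10 tumors 3, 6 and 7. Its 4 highest tumors were all higher-sum, opposite to Lss, with control tumor 7 as the exception. Ebp, the sterol isomerase, was the steadiest enzyme, 1.75-fold from lowest to highest, at 79.1, 62.8 and 47.4 TPM in control, 74.3, 78.2 and 71.4 TPM in IL-10-Fc, 63.0, 58.8 and 61.8 TPM under aCSF1R, and 80.3, 83.1 and 78.3 TPM in BF10 tumors. All 3 aCSF1R tumors were below all IL-10-Fc and all BF10 tumors, and the lowest BF10 tumor stood barely above the highest IL-10-Fc tumor. Nsdhl, a sterol dehydrogenase on chromosome X (72918557-72958514), measured 17.5, 21.9 and 11.9 TPM in control, 27.3, 24.2 and 24.4 TPM in IL-10-Fc, 25.2, 26.2 and 20.9 TPM under aCSF1R, and 22.6, 23.3 and 32.2 TPM in BF10 tumors. Every IL-10-Fc and every BF10 tumor was above every control tumor, and aCSF1R tumor 8 fell within the control range.

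**Figure D1:**
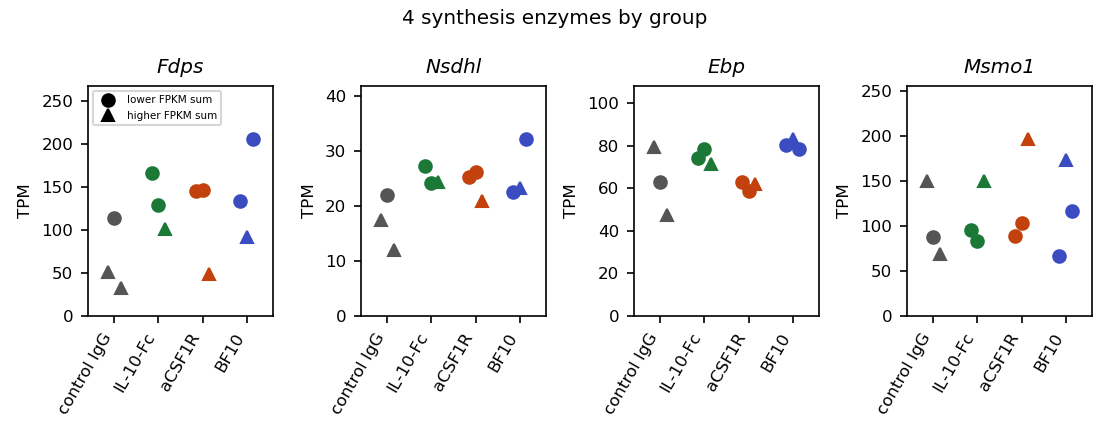
Levels (TPM, linear axes from 0) of Fdps, Nsdhl, Ebp and Msmo1 in each of the 12 tumors by group; circles are lower-sum and triangles higher-sum libraries. Fdps is low in the higher-sum tumors of each group, Msmo1 is high in 4 of them, and Ebp lies at 58.8 to 63.0 TPM in the aCSF1R tumors and 71.4 to 83.1 TPM in the IL-10-Fc and BF10 tumors.

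The other late enzymes were lowest on average in control. Cyp51, the lanosterol demethylase, averaged 28.7 ± 15.04 TPM in control, 44.1 ± 4.33 in IL-10-Fc, 42.2 ± 6.11 under aCSF1R and 41.9 ± 9.56 in BF10. Sc5d, a desaturase, averaged 20.3 ± 12.2, 33.5 ± 6.28, 32.4 ± 12.7 and 33.6 ± 12.2 TPM in the same order, and Dhcr7, the last reductase of one branch, 15.4 ± 11.1, 20.4 ± 8.92, 18.7 ± 11.5 and 21.99 ± 9.05 TPM. The reductases Tm7sf2 (5.82 ± 3.07, 7.92 ± 1.56, 7.58 ± 3.23 and 8.46 ± 1.80 TPM) and Hsd17b7 (4.70 ± 4.57, 6.68 ± 2.76, 7.50 ± 4.54 and 7.26 ± 3.39 TPM) were the scarcest enzymes. Their spread within groups again exceeded the gaps between most group means.

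Of the regulators, Srebf2, the factor that drives cholesterol genes, averaged 36.2 ± 21.8 TPM in control, 58.1 ± 14.9 in IL-10-Fc, 56.4 ± 32.0 under aCSF1R and 59.7 ± 22.3 in BF10. Srebf1, whose products lean toward fatty acid genes, averaged 42.2 ± 14.5, 60.9 ± 10.7, 58.4 ± 20.6 and 60.1 ± 10.2 TPM in that order, and the escort Scap 24.9 ± 14.8, 32.4 ± 10.1, 29.4 ± 15.5 and 32.8 ± 8.63 TPM. The retention genes varied less, with Insig1 at 43.8 ± 11.1, 52.7 ± 8.51, 52.0 ± 6.47 and 55.7 ± 16.8 TPM and Insig2 at 29.3 ± 6.58, 33.2 ± 2.48, 36.7 ± 4.52 and 32.1 ± 4.87 TPM. Stard4, a carrier of sterol between membranes, averaged 9.81 ± 6.58, 13.5 ± 2.85, 14.0 ± 6.32 and 13.1 ± 5.02 TPM, and Soat1, which esterifies cholesterol for storage, 40.0 ± 21.6, 61.6 ± 15.1, 64.8 ± 40.6 and 59.9 ± 21.2 TPM. Soat1 spread most in aCSF1R, with 90.2, 86.2 and 17.99 TPM in tumors 4, 6 and 8.

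**Figure D2:**
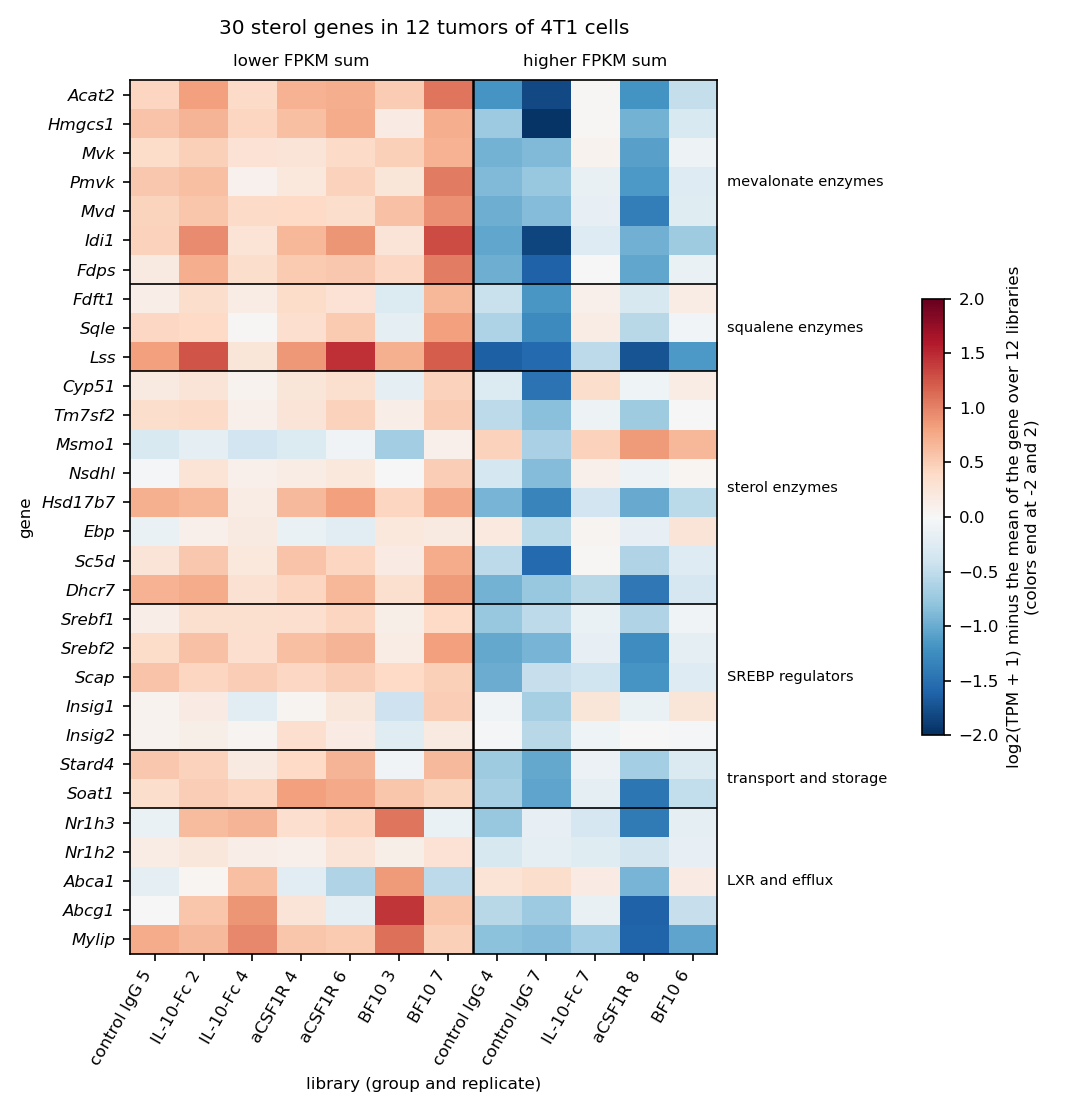
Heat map of the 30 genes (rows, by role) in the 12 tumors (columns, lower-sum left and higher-sum right of the line); color is log2(TPM + 1) minus the mean of the gene over the 12 tumors. Most synthesis rows turn from red to blue at the line, Msmo1 runs the other way, and 4 of the 5 LXR and efflux rows are reddest in BF10 tumor 3 and all 5 are bluest in aCSF1R tumor 8.

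Most synthesis genes differed between the library sets. In 20 of the 30 members, and in 12 of the 18 enzymes, all 5 higher-sum tumors were below all 7 lower-sum tumors, and 0 of 30 lay above without overlap. Among all 15504 genes tested, 48.8% were below and 6.23% above without overlap, so the split ran through much of the transcriptome. The median difference (higher-sum minus lower-sum, log2) was -1.05 for the enzymes, -0.71 for the SREBP regulators, -0.99 for the LXR and efflux genes and -0.70 for all genes. After scaling by the median of ratios these were -0.21, 0.16, -0.37 and -0.02, so the size of the gap depended on the scaling and the regulators changed sign. The epithelial, endothelial, mitochondrial and ribosomal protein levels already given moved with this gap, and their part in it was not tested.

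Within the 7 lower-sum tumors the enzymes still kept step. Over their 153 pairs the median Pearson r was 0.72 and the median Spearman rho 0.71 (log2(TPM + 1), 7 tumors from 4 groups), with 142 pairs above 0 for r. The means were 0.63 for r and 0.59 for rho, whereas each averaged 0.04 over all pairs of tested genes. These tumors share a total by construction, and the r values are a description. Idi1 followed the mean of the other enzymes most closely (r = 0.99), Msmo1 followed it here too (0.90), and Ebp did not (-0.14). Outside the enzymes, Insig1 (0.95) and Srebf2 (0.91) tracked their mean, and Scap (0.09) and Soat1 (0.05) did not. Within these 7 tumors Mylip (-0.86), Abca1 (-0.80), Nr1h3 (-0.61) and Abcg1 (-0.43) ran opposite, while Nr1h2 (0.87) ran with the enzymes. The picture depended on the tumors used. Over all 12, with group and set means taken out, r was -0.20 for Mylip, -0.58 for Abca1, -0.41 for Nr1h3, -0.33 for Abcg1, 0.40 for Nr1h2 and 0.68 for Msmo1. With group means alone taken out, Mylip (0.82), Abcg1 (0.68) and Nr1h3 (0.52) ran with the enzymes and Msmo1 (-0.43) opposite, which carries the gap between the sets. BF10 tumor 7 held the highest value of 13 of the 18 enzymes over the 12 tumors, and control tumor 7 held the lowest of 12. In BF10 tumor 3, 7 enzymes had their lowest lower-sum value, and in IL-10-Fc tumor 4, 6 enzymes did. The mean of log2(TPM + 1) over the enzymes was 5.017 in both tumors. The neutrophil markers summed to 16420 TPM in BF10 tumor 3, against 426 to 3338 in the other 11 tumors. In IL-10-Fc tumor 4 they summed to 2170 TPM. The part of neutrophils in the enzyme levels was not tested.

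**Figure D3:**
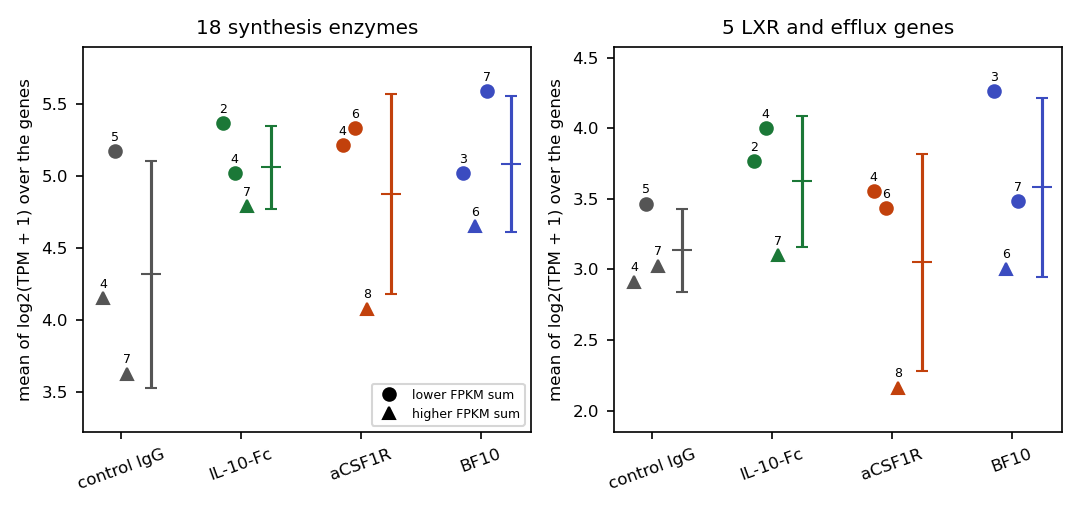
Mean of log2(TPM + 1) over the 18 synthesis enzymes (left) and the 5 LXR and efflux genes (right) in each tumor, with the replicate number beside each point, circles for lower-sum and triangles for higher-sum libraries, and a bar for the group mean ± SD (n = 3). The enzyme means run from 3.63 in control tumor 7 to 5.59 in BF10 tumor 7, and the LXR and efflux means from 2.16 in aCSF1R tumor 8 to 4.26 in BF10 tumor 3.

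The comparison of each treatment with control asked whether interleukin-10, receptor blockade or both changed sterol genes. The threshold was a limma adjusted p under 0.05 together with a 1.5-fold change or more. In BF10, 0 of 30 members passed it, as did 0% of the tested genes, while Fdps and Nsdhl had an unadjusted p under 0.05 (1.51% of all genes). The count was 0 of 30 in IL-10-Fc (0.00645% of all) with 0 at the unadjusted limit (1.44% of all), and 0 of 30 in aCSF1R (0.568% of all) with 0 at the unadjusted limit (3.46% of all). On TPM the values lay above control for 30 of 30 members in BF10, 30 of 30 with IL-10-Fc and 27 of 30 with aCSF1R, and for 24, 24 and 21 of 30 after scaling by the median of ratios. That scaling moved the median of all genes from 0.32, 0.35 and 0.24 (log2, TPM) to 0.01, -0.01 and 0.03, so the enzyme medians are given against all genes. On TPM they were 0.72 (BF10), 0.71 (IL-10-Fc) and 0.60 (aCSF1R), which is 0.40, 0.36 and 0.37 above the median of all genes, and 0.38, 0.33 and 0.34 above it on the other scaling. With the library set as a term they were 0.49, 0.45 and 0.39, or 0.42, 0.35 and 0.38 above all genes. In that setting 18, 18 and 14 of the 18 enzymes were higher than control. The 3 comparisons share the same control tumors, and 2 of those were higher-sum. Within the lower-sum set, against control tumor 5 alone, the enzyme medians were 0.12, 0.01 and 0.10. The medians of all genes there were -0.05, -0.07 and 0.02. Within the higher-sum set, against control tumors 4 and 7, the enzyme medians were 0.75, 0.95 and 0.28. All genes there had 0.18, 0.33 and -0.16. Leaving out control tumor 7 brought the pooled enzyme medians to 0.36, 0.35 and 0.21, and leaving out control tumor 5 to 1.21, 1.16 and 0.98. These last values are not set against all genes.

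Fdps had the smallest unadjusted p in both groups that received interleukin-10. The BF10 tumors differed from control by 1.24 (log2, SE 0.54, 95% interval 0.06 to 2.42, limma adjusted p = 0.789). The IL-10-Fc tumors differed by 1.17 (SE 0.54, interval -0.01 to 2.35, limma adjusted p = 0.738). Neither passed the test, and the differences were 0.54 and 0.36 within the lower-sum set, 1.17 and 1.31 within the higher-sum set, and 0.87 and 0.80 with the library set as a term. Nsdhl was the leading higher member in aCSF1R, by 0.51 (SE 0.27, interval -0.08 to 1.09, adjusted p = 0.894). It was also the 1 member whose BF10 and IL-10-Fc tumors lay wholly above control, where 2.36% and 4.75% of all genes did the same. The leading lower member in aCSF1R was Abca1, described with efflux.

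**Figure D4:**
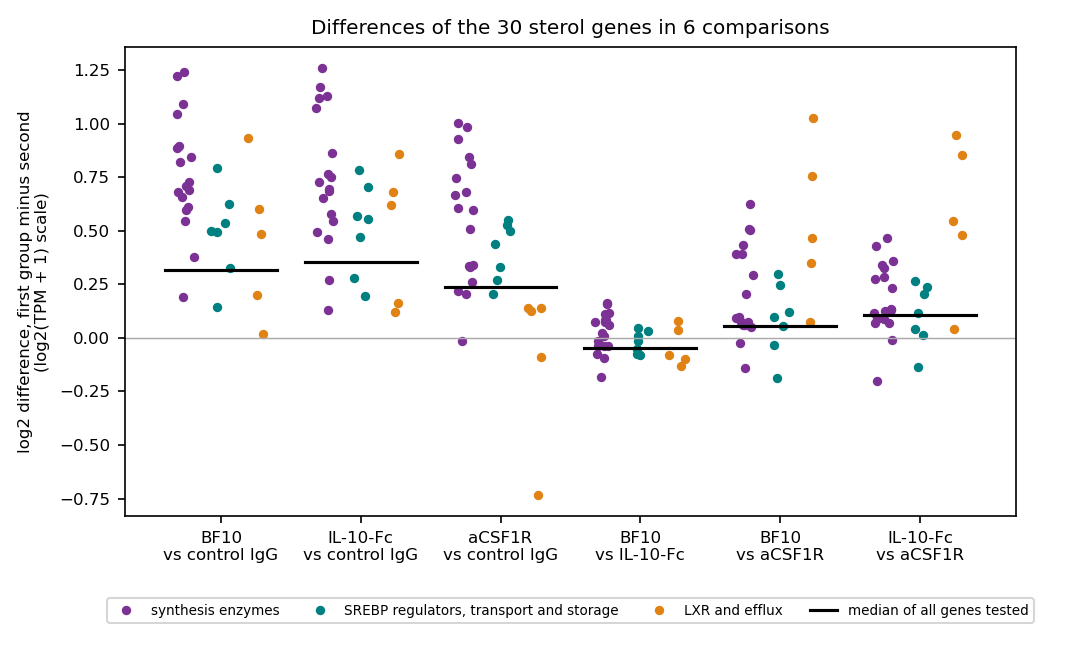
Difference of each of the 30 genes (points, colored by role) in 6 comparisons of groups, as first minus second group on the log2(TPM + 1) scale, with the median of all tested genes as a black line. The enzymes lie mostly above the line in the comparisons with control, and the LXR and efflux genes lie above it in BF10 against aCSF1R (median 0.46) and, except for Nr1h2 at 0.04, in IL-10-Fc against aCSF1R (median 0.54). No point passed the test.

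The next comparisons set BF10 against each of its parts, and the parts against each other. In BF10 against IL-10-Fc, 0 of 30 members passed the threshold (0% of all genes) and 0 had an unadjusted p below 0.05 (0.271% of all), with an enzyme median of 0.04 beside -0.05 for all genes. The leading members were Ebp, by 0.11 (SE 0.21, interval -0.35 to 0.57, limma adjusted p = 1), and Hmgcs1, by -0.18 (SE 0.62, interval -1.55 to 1.19, adjusted p = 1). Ebp was the member whose groups did not overlap, with BF10 above, as in 0.619% of all genes. In BF10 against aCSF1R, 0 of 30 passed (0.735% of all) and 0 had an unadjusted p below 0.05 (4.26% of all), the enzyme median was 0.10 beside 0.06 for all genes (-0.03 beside -0.05 after scaling by the median of ratios), and Ebp again lay above without overlap, as in 4.33% of all genes. In IL-10-Fc against aCSF1R, 0 of 30 passed (0.542% of all), Abca1 had an unadjusted p below 0.05 (3.56% of all), the enzyme median was 0.13 beside 0.11 (-0.02 beside -0.06 after the other scaling), and Ebp and Abca1 lay above without overlap, as in 5.9% of all genes. Insig2 led the lower members in both comparisons with aCSF1R, with -0.19 for BF10 (SE 0.24, interval -0.71 to 0.33, limma adjusted p = 1) and -0.14 for IL-10-Fc (SE 0.24, interval -0.66 to 0.38, adjusted p = 1). The median half-width of the 95% interval of a member was 1.10 on the log2 scale, so these data do not show that the groups were alike. Leaving out 1 tumor turned the sign of each of these enzyme medians, which ran from -0.21 (without BF10 tumor 7) to 0.25 (without BF10 tumor 6) between BF10 and IL-10-Fc. They ran from -0.15 to 0.41 between BF10 and aCSF1R and from -0.20 to 0.41 between IL-10-Fc and aCSF1R, lowest without aCSF1R tumor 8 and highest without aCSF1R tumor 6.

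The contrast of BF10 with the sum of its parts (the BF10 difference from control less the differences of IL-10-Fc and aCSF1R) had 0 of 30 members past the threshold (0.29% of all) and 0 at an unadjusted p below 0.05 (2.43% of all). The enzyme median was -0.59 beside -0.28 for all genes. Cyp51 led the lower members, by -0.77 (SE 0.53, interval -1.95 to 0.40, limma adjusted p = 0.975), and Abca1 the higher, by 0.63 (SE 0.53, interval -0.54 to 1.80, adjusted p = 0.975). With the library set as a term in the fit, 0 of 30 members passed in each contrast, with all genes as the background. Against control that background was 0.00645% with BF10, 0.0258% with IL-10-Fc and 2.01% with aCSF1R. It was 0% between BF10 and IL-10-Fc, 2.82% between BF10 and aCSF1R, 2.13% between IL-10-Fc and aCSF1R, and 1.21% in the contrast with the sum.

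Among the LXR and efflux genes, Abca1 was the one whose 3 aCSF1R tumors lay apart from control. Abca1, the exporter that loads cholesterol onto apolipoprotein particles (ENSMUSG00000015243, GRCm38 chr4:53030787-53159895), measured 12.3, 8.69 and 13.1 TPM in control tumors 4, 5 and 7 and 10.3, 15.7 and 11.4 TPM in IL-10-Fc tumors 2, 4 and 7. It measured 8.44, 6.23 and 4.76 TPM in aCSF1R tumors 4, 6 and 8, and 18.9, 11.4 and 6.66 TPM in BF10 tumors 3, 6 and 7. All aCSF1R tumors were below all control and all IL-10-Fc tumors, and BF10 tumor 7 fell among them. Against control the aCSF1R difference was -0.73 (log2, SE 0.38, interval -1.56 to 0.09, limma adjusted p = 0.894), with groups apart and aCSF1R below as in 3.68% of all genes, and it was -0.23 in the lower-sum set, -1.25 in the higher-sum set and -0.75 with the library set as a term. IL-10-Fc stood above aCSF1R by 0.86 (SE 0.38, interval 0.03 to 1.68, adjusted p = 1) and BF10 by 0.75 (SE 0.38, interval -0.07 to 1.58, adjusted p = 1).

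Abcg1, the exporter that hands sterol to mature high-density lipoprotein, measured 2.56, 4.29 and 2.17 TPM in control, 6.72, 8.71 and 3.72 TPM with IL-10-Fc, 5.28, 3.59 and 0.716 TPM with aCSF1R and 13.1, 2.82 and 6.74 TPM in BF10 tumors, in the tumor order above. The groups overlapped. Mylip averaged 3.71 ± 3.27 TPM in control, 5.96 ± 3.43 in IL-10-Fc, 4.46 ± 3.29 under aCSF1R and 5.77 ± 4.21 in BF10, and Nr1h3 2.30 ± 0.743, 4.45 ± 1.87, 3.12 ± 2.23 and 4.37 ± 2.895 TPM. Nr1h2 was flat by comparison, at 83.1 ± 14.6, 93.1 ± 15.2, 91.3 ± 19.6 and 95.3 ± 14.8 TPM, a 1.57-fold range. BF10 tumor 3 held the highest value of 4 of the 5 genes, all but Nr1h2, and aCSF1R tumor 8 the lowest of 5. Several marker lists stood out in the same tumors. BF10 tumor 3 was the highest of the 12 for fibroblast (9216 summed TPM), neutrophil (16420), endothelial (223.5) and T cell markers (44.2). aCSF1R tumor 8 was the lowest for macrophage (90.2), T cell (9.27), epithelial (752), endothelial (48.2) and adipocyte markers (36.8) and for genes above 0 (23012). With set means taken out, the mean of the 5 genes had r of 0.84 with endothelial, 0.77 with T cell, 0.74 with macrophage and 0.68 with fibroblast markers over the 12 tumors. The enzyme mean had r of 0.83 with proliferation and 0.54 with epithelial markers. As measured, the mean of the 5 genes had r of 0.95, 0.87, 0.43 and 0.82 with its lists in that order. The enzyme mean as measured had r of -0.16 with proliferation and 0.87 with epithelial markers, so sign and order depended on the set means. These r values are descriptions over tumors that share treatments and totals, and the part of these cells was not tested.

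As a group the 5 LXR and efflux genes differed from control by a median of 0.49 with BF10 and 0.62 with IL-10-Fc, or 0.17 and 0.27 above all genes, with 5 of 5 genes higher on TPM in each and 3 of 5 in each after scaling by the median of ratios. With the library set as a term the medians were 0.05 and 0.11, which is -0.01 and 0.00 against all genes. Leaving out 1 tumor moved the BF10 median from 0.18 (without BF10 tumor 3) to 0.83 (without BF10 tumor 6) and the IL-10-Fc median from 0.29 (without IL-10-Fc tumor 4) to 1.01 (without IL-10-Fc tumor 7). In aCSF1R the median was 0.12 with 3 of 5 genes higher on TPM, and -0.14 with 0 of 5 higher after scaling by the median of ratios and -0.45 with 0 of 5 higher with the set term, so no direction against control can be given. Against aCSF1R the median was 0.46 for BF10 and 0.54 for IL-10-Fc, beside 0.06 and 0.11 for all genes. On TPM 5 of 5 genes were higher in each, and 4 of 5 in each after the other scaling. Within the lower-sum set the medians of the 5 genes were 0.25 and 0.27, beside -0.089 and -0.085 for all genes. Within the higher-sum set, with 1 tumor a group, they were 1.10 and 1.09, beside 0.35 and 0.52 for all genes. Without aCSF1R tumor 8 the pooled medians of the 5 genes became -0.11 and -0.06. BF10 differed from IL-10-Fc by -0.08, and by -0.45 without BF10 tumor 3. None of the 5 genes passed the test in any comparison.

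**Figure D5:**
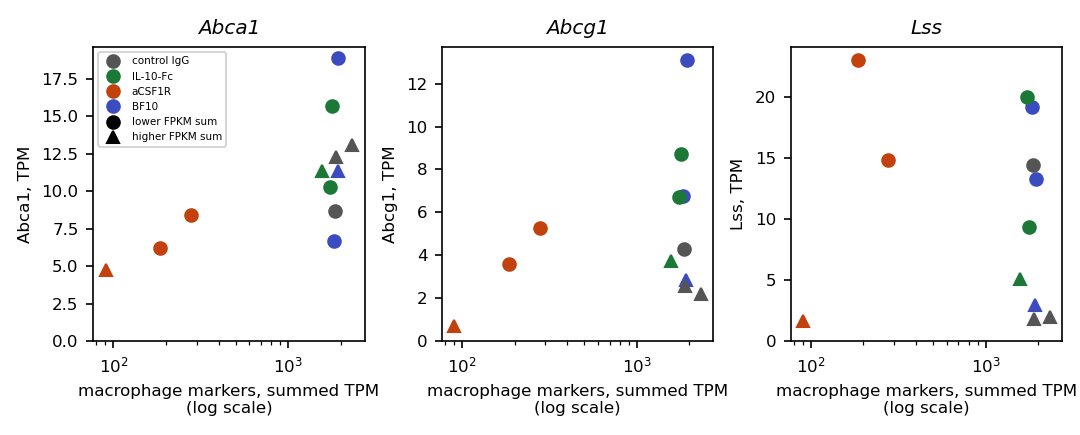
Abca1, Abcg1 and Lss (TPM, linear axes) against the summed TPM of 12 macrophage markers (log axis) in each tumor, colored by group, circles for lower-sum and triangles for higher-sum libraries. The aCSF1R tumors lie apart at 90.2 to 278 on the horizontal axis, with Abca1 at 4.76 to 8.44 TPM, while Lss there spans 1.63 to 23.0 TPM, as wide as over all tumors.

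Genes of neighbouring pathways were counted in the same way. Of 10 genes of fatty acid synthesis, whose enzymes answer to SREBP as well, 0 passed the threshold in any of the 7 contrasts. Their medians were 0.81 (BF10), 0.79 (IL-10-Fc) and 0.60 (aCSF1R) against control, or 0.47, 0.38 and 0.37 after scaling by the median of ratios, and 0.03 in BF10 against IL-10-Fc. Of 11 genes of sterol handling, covering lysosomal release, binding proteins and oxysterol enzymes, 0 passed in the 7 contrasts, with medians of 0.47, 0.50 and 0.20 against control, or 0.09, 0.06 and -0.02 after the other scaling. For this list only median-of-ratios scaling and the library set term were looked at as other settings. Cyp27a1, the mitochondrial sterol 27-hydroxylase, was the 1 gene of the list that passed under them. Scaled by the median of ratios it was called in aCSF1R against control (-1.64, SE 0.26, limma adjusted p = 0.0147) and in BF10 against aCSF1R (1.69, SE 0.26, adjusted p = 0.0131). Of all 15504 genes, 138 were called lower and 1 higher in the first of these, and 138 higher and 0 lower in the second. In IL-10-Fc against aCSF1R 0 of the 11 genes were called on this scaling. With a term for the library set, Cyp27a1 fell in aCSF1R against control by 1.66 (log2, SE 0.21, limma adjusted p = 0.0013). In that setting Cyp27a1 was higher in BF10 than in aCSF1R by 1.75 (SE 0.20, adjusted p = 0.000546). It was higher with IL-10-Fc than aCSF1R by 1.43 (SE 0.20, adjusted p = 0.00293), with 1.98 in the contrast with the sum (adjusted p = 0.00617). It differed in the same comparisons as the macrophage markers, whose part in it was not tested.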

How the data were processed

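RNA of 12 tumors was measured by bulk sequencing, 3 tumors in each of 4 groups set by the sample labels. TRIzol extraction, stranded mRNA libraries and alignment to mm10 are given in the methods. The notes of the submitters name STAR 2.7.5a, RSEM 1.3.3 and DESeq2 1.28.0 with no role. The authors deposited FPKM values (fragments corrected for gene length and library size) with 2 decimals for 55401 genes. Counts were not used, so the depth of the libraries is not known. A further 4 tables, which hold the authors' comparisons (log2 fold changes, p-values), were not used. Columns were matched to samples by name, and 0 were left unmatched.

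Each FPKM value was divided by its library's sum and scaled to TPM. Genes with TPM of at least 1 in at least 3 libraries (15504) were fitted on log2(TPM + 1), which understates changes of low genes, with limma 3.58.1 (eBayes with trend, R 4.3.3) and 1 mean per group. Calls needed a Benjamini-Hochberg adjusted p over all genes below 0.05 and a change of at least 1.5-fold. The labels do not say that tumors came from separate mice, so p-values measure the spread between these samples. The fit was tested on simulated data drawn without a difference between library sets, so that test is milder than these data. Library sets were divided at an FPKM sum of 700000. Members, lists and alternatives (pseudocount 0.1, FPKM as deposited, median-of-ratios scaling, no filter, library set as a term, replicate block, leaving out each library) were chosen with earlier results of these data known. Every member is named with its levels, and test values are given for the higher and the lower member that had the smallest unadjusted p in a contrast. Genes of the other lists are named where they passed a threshold. Promoter windows came from RefSeq (GRCm38.p6): for members the one nearest the GENCODE M21 gene start, for all other genes the first listed.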

Additional observations from a re-analysis of the deposited data

How the results depend on the processing

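The count of members past the threshold was 0 in each of the 7 contrasts and stayed 0 under all 18 alternatives, 126 of 126 values. Of 216 alternative values of the group medians, 208 moved by less than the spread between replicates, which does not mean that they kept their sign. The exceptions for the LXR and efflux genes in IL-10-Fc against control were 0.107 with the library set as a term and 1.01 without IL-10-Fc tumor 7. The replicate number, entered as a replicate block, left 2 residual degrees of freedom and moved the enzyme medians to 1.46 (BF10 against control), 1.58 (aCSF1R against control), 0.493 (BF10 against IL-10-Fc) and -0.575 (IL-10-Fc against aCSF1R), and the LXR and efflux medians to 0.808 (aCSF1R against control) and -0.166 (IL-10-Fc against aCSF1R). The r of deviations of same-numbered tumors ran from -0.663 to 0.417 over 7 pairs and was above 0 only for the 2 pairs within 1 library set, so it does not tell whether the numbers pair the samples, and no label says that they do. The block changed no call. Of 216 values for named members 214 kept their direction and side of the threshold. Hmgcs1 in BF10 against IL-10-Fc turned to 0.316 with the replicate block and to 0.069 without BF10 tumor 6 (-0.447 to 0.069 when 1 tumor was left out), and the cause was not tested. Over all alternatives the smallest limma adjusted p of any member was 0.053, shared by 7 members (Acat2, Hmgcs1, Idi1, Fdps, Lss, Srebf2 and Soat1) in aCSF1R against control with the replicate block, where 0% of all genes passed. The next was 0.112, for Abcg1 in BF10 against aCSF1R with the library set as a term. Leaving out 1 library moved the enzyme medians from 0.36 to 1.21 (BF10 against control), 0.353 to 1.16 (IL-10-Fc against control) and 0.209 to 0.976 (aCSF1R against control), with control tumors 7 and 5 setting the ends. The LXR and efflux medians ran from 0.292 to 1.01 in IL-10-Fc against control and from -0.23 to 0.459 in aCSF1R against control (without aCSF1R tumors 4 and 8). The median standard error over all genes was 0.426 (log2) with 3 tumors a group, which limits what could be called.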
